A study of Caenorhabditis elegans with 2 samples.

Results

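The RNA subunits of 2 related enzymes, RNase P and RNase MRP, are encoded in Caenorhabditis elegans by the genes rpr-1 and mrpr-1, and these were 2 of 46890 annotated nuclear genes. They were chosen because a peak of GFP-tagged MES-4 lay at each of them in the peak lists described here, so the presence and height of those peaks are a description and carry no test. The peaks were measured by ChIP-seq, in which chromatin is sheared, a protein is pulled down with an antibody and the DNA that comes with it is sequenced. The antibody was against GFP, and the animals were whole hermaphrodite young adults of strain RW10325, a transgenic line that stably expresses MES-4 fused at its C terminus to GFP and FLAG. They were taken 63 h after synchronization, in which embryos from bleaching were arrested by starvation as L1 larvae. There was 1 group with 2 biological replicates. The labels do not give the promoter of the transgene, the animals per replicate or whether endogenous MES-4 was present. Neither the control nor untagged animals were analysed here. In whole animals the tissue that a peak comes from cannot be told, and the lists hold no values by which germline or somatic markers could be checked.

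RNase P is the ribonucleoprotein that cuts the 5′ leader from tRNA precursors, and RNase MRP is its close relative, known mainly for cutting the precursor of ribosomal RNA. In most eukaryotes studied, RNA polymerase III makes both RNAs from a promoter that lies before the gene, with a proximal sequence element and a TATA box, whereas it makes tRNAs from A and B boxes inside the gene. MES-4 is a methyltransferase of lysine 36 of histone H3 that is needed for germline development in Caenorhabditis elegans.

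Coordinates are given on ce11, which is the WBcel235 assembly. The gene rpr-1 (WBGene00045238) lies on the plus strand of chromosome I from 13463955 to 13464207 and is 253 bp long. It sits inside an intron of ints-8 (WBGene00013021, chromosome I, 13455356 to 13470371), a gene on the other strand that encodes a subunit of the Integrator complex, which processes the 3′ ends of small nuclear RNAs. That intron runs from 13462739 to 13464761, 2023 bp, and rpr-1 begins 1216 bp from one of its edges and ends 554 bp from the other. No other small RNA gene was close by, the nearest being the miRNA gene cel-mir-1824 at 49747 bp.

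The gene mrpr-1 (WBGene00045095) lies on the plus strand of chromosome II from 7200233 to 7200418 and is 186 bp long. It is intergenic, with E04F6.6 (WBGene00017126) on the minus strand 667 bp before it and pcrg-1 (WBGene00017122) on the plus strand 130 bp after it. A further gene on the minus strand, srd-56 (WBGene00005134), which encodes a serpentine receptor, lies 1597 bp away. The nearest other small RNA gene was the snoRNA gene C27H5.10 at 15740 bp.

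The letters before and inside mrpr-1 are printed because its main peak covers them, from the WBcel235 sequence of RefSeq. They run from 100 bases before the 5′ end into the bases after the 3′ end, on the plus strand of chrII:7200133-7200432. The capitals mark, in order, an 11-base word that rpr-1 also carries before its 5′ end, a TATA-like stretch, and the run of T at the 3′ end.
mrpr-1: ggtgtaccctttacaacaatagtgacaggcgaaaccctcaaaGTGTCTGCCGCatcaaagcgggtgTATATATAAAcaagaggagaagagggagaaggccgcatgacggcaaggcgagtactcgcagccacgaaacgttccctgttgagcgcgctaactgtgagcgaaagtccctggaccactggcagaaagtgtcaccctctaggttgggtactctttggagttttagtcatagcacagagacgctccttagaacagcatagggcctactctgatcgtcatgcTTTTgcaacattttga

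The 100 bases before 4 snoRNA genes with a reproducible peak and before lfor-1, a noncoding RNA gene without one, are printed because they hold the same 11-base word. This is in capitals, as is the TATA-like word of lfor-1. They lie at chrIV:8428740-8428839, chrIV:14327122-14327221 and chrIV:867134-867233 on the minus strand, chrII:11224082-11224181 on the plus strand and chrII:14636094-14636193 on the minus strand, in the order printed.
T26A8.6: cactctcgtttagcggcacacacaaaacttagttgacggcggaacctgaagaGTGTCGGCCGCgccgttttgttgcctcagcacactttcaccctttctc
Y67A10A.14: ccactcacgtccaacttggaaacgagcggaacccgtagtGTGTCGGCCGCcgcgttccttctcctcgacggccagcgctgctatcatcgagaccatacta
Y55F3BR.9: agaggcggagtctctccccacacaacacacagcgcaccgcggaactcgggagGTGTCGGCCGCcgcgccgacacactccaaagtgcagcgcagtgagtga
T06D8.11: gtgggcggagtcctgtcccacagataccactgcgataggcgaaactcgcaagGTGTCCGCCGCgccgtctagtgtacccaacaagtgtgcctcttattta
lfor-1: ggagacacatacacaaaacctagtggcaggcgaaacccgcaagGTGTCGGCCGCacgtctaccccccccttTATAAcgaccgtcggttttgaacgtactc

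The leucine tRNA gene C04A11.t1, at chrX:13665555-13665673 on the plus strand, is printed as the contrast, since its peak was the strongest at any tRNA gene in the reproducible list. It has no such word before it, and the capitals mark the B box core inside the gene.
C04A11.t1: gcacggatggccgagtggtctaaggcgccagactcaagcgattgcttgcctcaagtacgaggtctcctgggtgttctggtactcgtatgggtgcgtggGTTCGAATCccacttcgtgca

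Values are peaks from 4 deposited lists. A relaxed list of peaks and background had been made for either replicate and for both replicates pooled, and a reproducible list had been kept from them by the irreproducible discovery rate (IDR), which compares the order of peaks between replicates. After 20 to 23 mitochondrial peaks were left out of each, the lists held 440 nuclear peaks (reproducible), 12008 (pooled relaxed), 15372 (replicate 1) and 14947 (replicate 2). Each peak has a signal value, which is the authors' own. The peaks at the 2 genes and at tRNA genes, the last of these at rank 436, had the same signal values and ranks in the reproducible list as in the pooled relaxed list. The replicate lists had other values. The median was 100 in the reproducible list, 35.1 in the pooled relaxed list, 19.6 for replicate 1 and 18.6 for replicate 2. The reproducible list held only high peaks of the pooled relaxed list. A multiple of its median is therefore not comparable with a multiple of a relaxed list's median. Peaks are therefore ranked by signal value within a list, with rank 1 the highest. The −log10 q value separates these peaks less, since 361 reproducible peaks share its highest value of 2.18. Ranks in the reproducible list follow the pooled signal value, and a place in it does not mean like ranks in both replicates. The tRNA gene sup-5 ranked 40 in replicate 1 and 3757 in replicate 2, and F28F8.t4 ranked 8332 and 229. The median difference in rank between replicates was 2.11-fold at tRNA genes.

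At rpr-1 the reproducible list held 1 peak within 2 kb, and it ranked 3 of 440. It ran from 13463804 to 13464025, was 222 bp wide and had a signal value of 253. That is 2.52 times the list's median and 7.21 times the median of the pooled relaxed list. Its summit lay 15 bp past the annotated 5′ end. In replicate 1 the peak ran from 13463750 to 13464189, ranked 3 of 15372 with a signal value of 132.4, or 6.75 times that list's median, and had its summit at the same base. In replicate 2 it ran from 13463881 to 13464013, ranked 4 of 14947 with a signal value of 124.7, or 6.71 times the median, and had its summit 5 bp before the 5′ end. Both replicates thus held this gene among their 4 highest nuclear peaks, with summits 20 bp apart on either side of the first base of the RNA. A second, low line lay at 13463950 to 13464389, with its summit at +215 (bases past the 5′ end), near the 3′ end of the gene. It ranked 973 in replicate 1 with a signal value of 33.47 and 6025 in the pooled relaxed list with 35.03, or 0.999 times that list's median. It was not listed in replicate 2 or in the reproducible list.

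At mrpr-1 the reproducible list held 2 overlapping peaks. The higher ran from 7200072 to 7200511 and had its summit at +59, inside the gene. It ranked 59 of 440 with a signal value of 144.4, or 1.44 times the median (4.12 times the pooled relaxed median). The lower ran from 7200272 to 7200711 and ranked 322 with a signal value of 87.24, or 0.869 times the median (2.49 times the pooled relaxed median). Its summit, at +259, lay 74 bp past the 3′ end of mrpr-1 and before the 5′ end of pcrg-1, which is at +316. In replicate 2 the same pair was listed, with a summit at +56 that ranked 27 of 14947 (signal value 87.70, 4.72 times the median) and a summit at +259 that ranked 345 (43.97, 2.37 times the median). In replicate 1 a single peak from 7200161 to 7200600 ranked 184 of 15372 (56.27, 2.87 times the median), and its summit at +148 lay between those positions. The replicates therefore placed a high peak on mrpr-1 but differed in its form. The 200 bp between its 2 reproducible summits was also the smallest distance between neighbouring summits anywhere in that list (199 bp in the relaxed lists). Only 5 pairs of neighbouring reproducible summits were at most 210 bp apart, and how the peak caller divides a region was not tested.

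**Figure D1:**
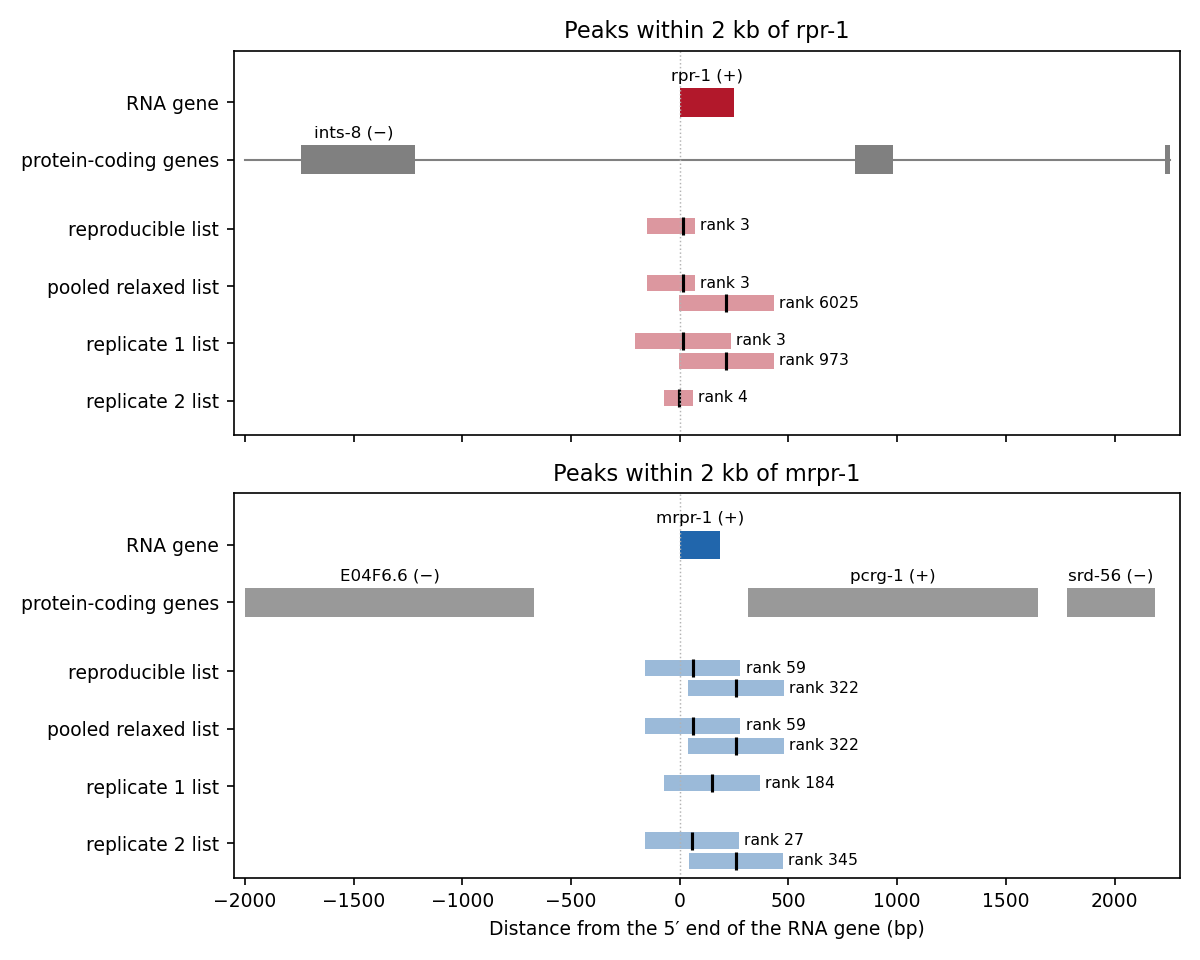
Peaks within 2 kb of rpr-1 (upper panel) and mrpr-1 (lower panel) in the 4 lists, by distance from the 5′ end of the RNA gene in bp. Pale bars are peaks with their rank by signal value, black ticks are summits, and grey boxes are protein-coding genes, drawn as exons joined by a line for ints-8. The rpr-1 summits of rank 3 and 4 sit at the 5′ end, while the mrpr-1 summits are spread from +56 to +259.

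Peaks this near to a gene were rare in the reproducible list and common in the relaxed lists, where background is included. Of all 46890 nuclear genes, 3.77% had a reproducible peak within 2 kb, against 43.3% in the pooled relaxed list, 51.3% for replicate 1 and 52% for replicate 2. A summit within 220 bp of the gene was found for 1.81% of genes in the reproducible list, 20.2% in the pooled relaxed list, 23.6% for replicate 1 and 23.4% for replicate 2. Both RNA genes met both criteria in all 4 lists. Since the genes were chosen for these peaks, nothing is read from that count.

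Between 2 kb and 8 kb from rpr-1, a peak with its summit before the 5′ end of ints-8, outside that gene, was found in every list. In the reproducible list it ran from 13470226 to 13470665, 6019 bp from rpr-1, and ranked 393 with a signal value of 80.92. It ranked 393 in the pooled relaxed list, 918 in replicate 1, where it began 5948 bp from rpr-1, and 306 in replicate 2. Replicate 1 also had a peak of rank 10520 within ints-8 at 4353 bp. The remaining peaks, at Y48G10A.3, ranked 1400 and 5533 in replicate 1 and 4474 in the pooled relaxed list. The same distance around mrpr-1 held relaxed peaks and no further reproducible peak. Those at srd-56 ranked 2909 in the pooled relaxed list, 3580 in replicate 1 and 11428 in replicate 2. Those at acdh-12, on the other side, ranked 4201 in the pooled relaxed list, 11733 in replicate 1 and 2313 in replicate 2, and a peak at E04F6.6 ranked 14445 in replicate 1.

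The peaks at tRNA genes were taken as the comparison, since tRNA genes made up much of the reproducible list. RNA polymerase III makes tRNAs and, in most eukaryotes studied, the RNAs of RNase P and RNase MRP. Which polymerase transcribes rpr-1 and mrpr-1 was not tested here. A summit within 220 bp of a tRNA gene was found for 204 reproducible peaks, 115 on X and 89 on autosomes, and 225 of 612 tRNA genes (36.8%) had such a summit. The rpr-1 peak ranked above all 204 and had 2.50 times their median signal value of 101.1. The highest of them, at C04A11.t1 (X, 13665390 to 13665829), ranked 8 with a signal value of 212.6. Among the 440 highest peaks of each replicate, the rpr-1 peak again ranked above every tRNA gene peak, 172 in replicate 1, where it had 2.41 times their median, and 183 in replicate 2, where it had 2.33 times. The order of rpr-1 over the tRNA genes was therefore the same in each replicate list. The 2 replicate lists are not fully separate from the reproducible list, which was derived from them.

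The mrpr-1 peak stood in the upper range of the tRNA gene peaks instead of above it. In the reproducible list 189 of 204 tRNA gene peaks ranked below it, a share of 92.6% (exact 95% Clopper-Pearson interval 88.2 to 95.8%, for counting error only). For the replicates, only tRNA gene peaks among the 440 highest peaks were counted. In replicate 2 the share was 97.3% (93.7 to 99.1%), with 178 of 183 below it. In replicate 1 it was 53.5% (45.7 to 61.1%), with 92 of 172 below it. There mrpr-1 was close to the middle of these high tRNA gene peaks, not of all tRNA gene peaks. In the whole replicate 1 list, 477 of 612 tRNA genes had a summit within 220 bp, and 80 tRNA gene peaks ranked above mrpr-1. Genes can share a peak, so no share over the whole list is given. The mrpr-1 signal value was 1.43 times the median of the counted tRNA gene peaks in the reproducible list, 1.02 times in replicate 1 and 1.64 times in replicate 2. Of the 15 tRNA gene peaks above it in the reproducible list, 14 were on X and 1 was on an autosome. In replicate 2 all 5 above it were on X, and in replicate 1 49 of the 80 above it were. The tRNA gene peaks closest to it in the reproducible order were those at the isoleucine tRNA gene C02D4.t1 (X, 15297400 to 15297839), which ranked 57 with a signal value of 146, and at the proline tRNA gene F46G11.t2 (X, 5801060 to 5801499), which ranked 61 with 143.5.

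**Figure D2:**
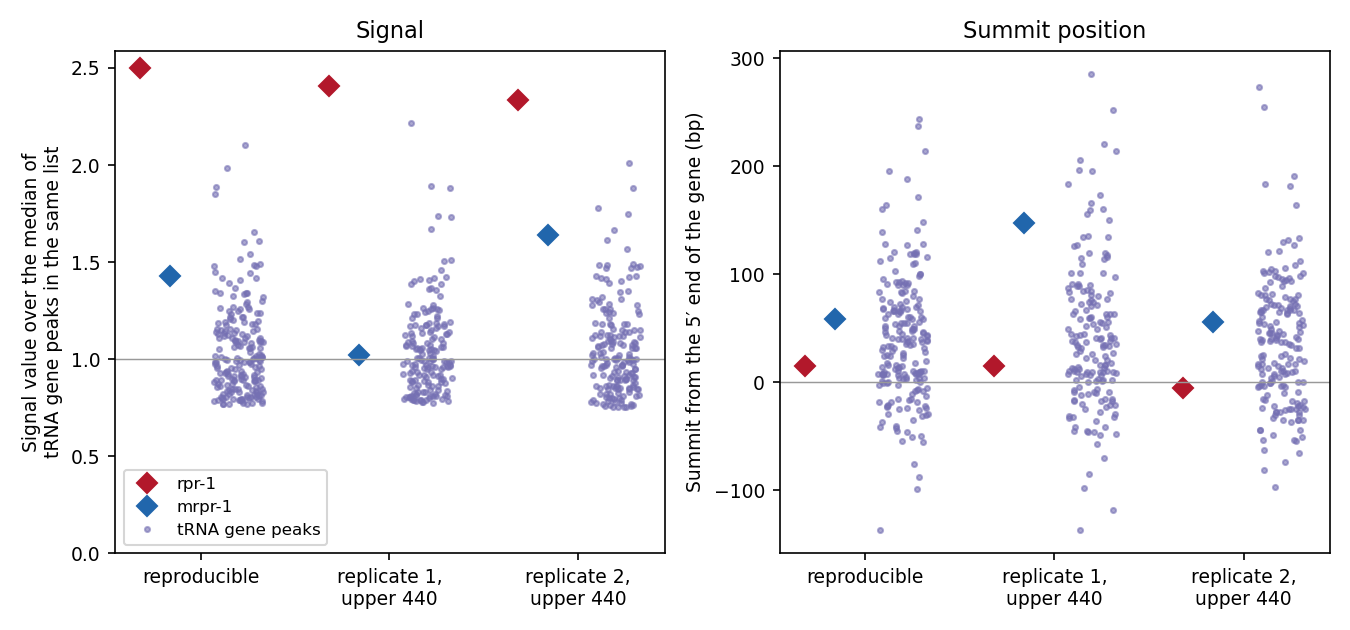
Peaks at rpr-1 and mrpr-1 (diamonds) beside tRNA gene peaks (dots) in the reproducible list and in the 440 highest nuclear peaks of each replicate. The left panel gives the signal value over the median of the tRNA gene peaks of the same list and the right panel the summit's distance from the 5′ end of the gene in bp. The rpr-1 diamonds, at 2.50, 2.41 and 2.33, lie above all dots in the left panel, and the mrpr-1 diamonds, at 1.43, 1.02 and 1.64, lie among them.

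Agreement between replicates could be set against that at tRNA genes. Over 224 tRNA genes with a reproducible summit and a summit in each replicate, the summits of the replicates lay a median of 38 bp apart (quartiles 17.8 and 65.2 bp). Neighbouring tRNA genes can share a peak, so some peaks count more than once in these numbers of genes. The distance of 20 bp at rpr-1 was smaller than that of 158 tRNA genes and larger than that of 65. The distance of 92 bp at mrpr-1 was larger than that of 193 tRNA genes and smaller than that of 29. The ranks in the replicates differed by 1.33-fold at rpr-1 and by 6.81-fold at mrpr-1, against a median of 2.11-fold (quartiles 1.40 and 3.67) at tRNA genes. Of the 224 tRNA genes, 23 had a larger ratio than mrpr-1 and 175 a larger ratio than rpr-1. Replicate 2 gave mrpr-1 the better rank, as it did for 125 of these tRNA genes.

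Summits at tRNA genes lay a median of 37.5 bp past the 5′ end (quartiles 4 and 70.5 bp) in the reproducible list, and 44 of 204 lay before it. The rpr-1 summit at +15 was within those quartiles, with 78 of the 204 at or before its position. The mrpr-1 summit at +59 was also within them, with 134 at or before it. In replicate 1 its summit at +148 lay past the upper quartile of 77.8 bp, and 158 of 172 tRNA gene summits were at or before it. Counted in bp from the 5′ end, the reproducible summits of both genes thus lay where summits at tRNA genes commonly lay. These distances were not scaled to gene length, so the place along the gene was not compared. From the 3′ end, the summits lay at -237 bp in rpr-1, which is 253 bp long, and at -126 bp in mrpr-1, which is 186 bp long.

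Width did differ. Of the 440 nuclear reproducible peaks, 17 were narrower than the common 440 bp, and the rpr-1 peak, at 222 bp, was among them. Of the other narrow peaks, 14 were at snoRNA genes, 1 was at a snRNA gene and 1 lay elsewhere, while 0 of 204 tRNA gene peaks were narrow. All 17 ranked 53 or better. Only 15 of the 204 tRNA gene peaks ranked above the mrpr-1 peak at 59, so most stood at ranks where no peak of any class was narrow. Both mrpr-1 peaks had the common width. In replicate 2 the rpr-1 peak was 133 bp wide against a common width of 430 bp, and in replicate 1 it had the common 440 bp. How the peak caller set the width is not given in the sources used here.

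The peaks above rpr-1 were 2, both at snoRNA genes. Above the higher mrpr-1 peak were 58: 29 at snoRNA genes, 15 at tRNA genes, 4 at snRNA genes, 1 at rpr-1 and 9 elsewhere. By the order of ranks in the 4 lists, measured as the root mean square difference of log10 rank among 512 noncoding RNA genes with a summit in all of them, the genes most like rpr-1 were all snoRNA genes. The closest was ZK265.10 on chromosome I (0.119, ranks 4 in the reproducible and pooled lists, 4 in replicate 1 and 5 in replicate 2). It was followed by C51F7.3 and C51F7.4 on chromosome V (0.214 each, rank 2 in every list), which share a peak, by W03C9.9 on II (0.357) and by Y75B12B.12 on V (0.379). The genes most like mrpr-1 were the snoRNA gene M106.6 on II (0.055, ranks 64, 215 and 23 in the reproducible list and replicates 1 and 2), the tRNA gene C02D4.t1 (0.089, ranks 57, 180 and 18) and the snoRNA gene Y38F2AR.14 on IV (0.098, ranks 67, 263 and 22). Next came the snoRNA gene Y39G10AR.24 and the noncoding RNA gene Y39G10AR.26 on chromosome I, which share a peak (0.119 each, ranks 75, 246 and 37). All of these had a better rank in replicate 2 than in replicate 1, as mrpr-1 had. That follows from choosing genes by their likeness to the ranks of mrpr-1, so nothing is read from it. The 4 lists share reads, so the measure rests on 2 samples.

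**Figure D3:**
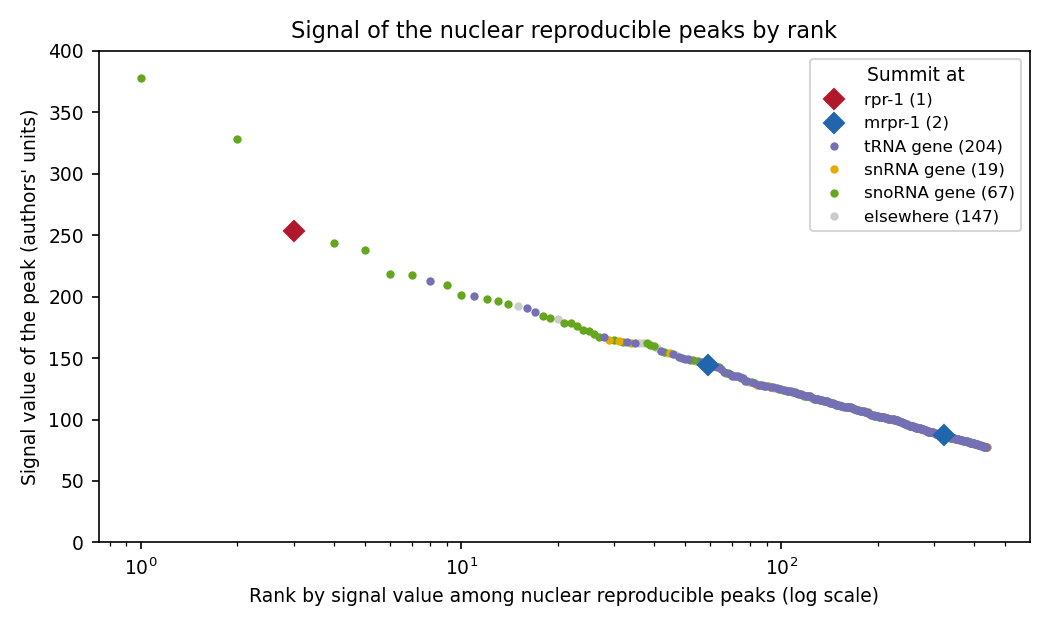
Signal value, in the authors' units, of the 440 nuclear reproducible peaks against their rank (log scale), coloured by the gene class at the summit. The red diamond is rpr-1 (rank 3, signal value 253) and the blue diamonds are the mrpr-1 peaks (ranks 59 and 322, signal values 144.4 and 87.24). Green snoRNA gene peaks hold most of the ranks around rpr-1.

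The genes of the enzymes' protein subunits and of the transcription machinery gave few reproducible peaks. Of 12 listed names of RNase P and RNase MRP proteins, 4 were in the annotation under those names (popl-1, popl-4, popl-5 and popl-7), and 0 of the 4 had a reproducible summit in the gene or up to 500 bp upstream. Such a summit was found for 1.45% of 19973 protein-coding genes. The POP1 homolog gene popl-1 alone had a relaxed peak, with rank 9954 in the pooled list, 12726 in replicate 1 and 1791 in replicate 2. Of 25 listed genes of RNA polymerase III and its factors, 23 were annotated and 1 had a reproducible summit. This was rpac-19, which encodes a subunit shared by RNA polymerases I and III. Its peak (III, 9629839 to 9630278) ranked 193 with a signal value of 103.7, and the summit lay 174 bp before its 5′ end and also near ubc-7. In the relaxed lists 15 of the 23 had a summit in the pooled list (34.3% of all protein-coding genes), 13 in replicate 1 (40.6%) and 14 in replicate 2 (39.5%). No difference from the rest of the protein-coding genes is read from these counts.

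The signal recognition particle, Y and 5S ribosomal RNA genes, which RNA polymerase III transcribes in animals, ranked below rpr-1 and the higher mrpr-1 peak wherever they had a reproducible peak. Of 5 signal recognition particle RNA genes, srpr-2.2 had a reproducible summit (III, 5031439 to 5031878, signal value 104.7), at rank 188, with ranks 285 in replicate 1 and 196 in replicate 2. The Y RNA gene yrn-1 had a peak (IV, 7499306 to 7499745, signal value 80.63) at rank 396, with ranks 345 in replicate 1 and 731 in replicate 2. Of 16 annotated 5S ribosomal RNA genes, 0 had a reproducible summit. One of them, rrn-4.15, was listed at rank 987 in the pooled relaxed list, 521 in replicate 1 and 1881 in replicate 2. Whether reads can be aligned to a single place in the 5S genes was not checked, so their lack of peaks is not read as a lack of signal. Of 129 snRNA genes, among which U6 genes could not be told from the others, 18 (14%) had a reproducible summit within 220 bp, and of 346 snoRNA genes 68 (19.7%) did.

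Features of the sequence that played no role in choosing the genes were then described. Inside rpr-1 and mrpr-1, no B box core (GTTCGANNC or GTTCAANNC, on either strand) was found, whereas 587 of 612 tRNA genes (95.9%) held one on their own strand. Its absence is common outside tRNA genes, since 6517 of the 44446 genes of the classes compared (14.7%), 10 of 346 snoRNA genes (2.89%) and 0 of 129 snRNA genes held one. Between 50 and 10 bases before the 5′ end, both genes had a TATA-like word (TATAA or TATAT), starting 30 bases before rpr-1 and 34 bases before mrpr-1. Such a word on the gene's strand was found before 65 of 612 tRNA genes (10.6%), 23 of 129 snRNA genes (17.8%) and 7474 of 44446 genes of the classes compared (16.8%). At the 3′ end, rpr-1 had a run of 5 T and mrpr-1 a run of 4 T, each beginning 1 base before the last annotated base. A run of at least 4 T near the 3′ end was found in 606 of 612 tRNA genes (99%) and in 24869 of the 44446 genes (56%). GC content was 51% in rpr-1 and 53.2% in mrpr-1, against a median of 58.3% over tRNA genes. The 100 bases before rpr-1 had 69% GC and those before mrpr-1 48%.

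Between 120 and 31 bases before their 5′ ends, the longest ungapped stretch that the 2 genes share with at most 1 mismatch was GTGTCNGCCGC, 11 bases long. It starts 56 bases before rpr-1 and 58 bases before mrpr-1. Of the 15 bases just before it, 10 in rpr-1 are identical to those in mrpr-1. Beside these 2 genes, 12 of 44446 genes (0.0270%) had the word in the same window on their own strand and 1 had it on the other strand. No tRNA, snRNA or piRNA gene was among the 12. They comprised 6 of 346 snoRNA genes, 4 noncoding RNA genes of other kinds, 1 miRNA gene and 1 protein-coding gene, and their words started 46 to 61 bases before the 5′ end.

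Of those 12 genes, 7 (58.3%, exact 95% interval 27.7 to 84.8%) had a reproducible summit within 220 bp, namely all 6 snoRNA genes and K07C10.6, a noncoding RNA gene that shares its summit with the snoRNA gene K07C10.2. The summits at T26A8.6, Y55F3BR.9, T06D8.11 and F59C6.15 also lay within 220 bp of other genes, and the one at F59C6.15 was at +200. None of the 278 snoRNA genes without a reproducible summit had the word in this form. With 1 further mismatch allowed, 99 genes had it and 19 of them (19.2%) had a reproducible summit, among them 13 of 26 snoRNA genes (50%). These genes were found through a word picked from 2 genes with high peaks, and they are named after their values were seen, so the count has no test. The 6 snoRNA genes ranged from rank 60 to rank 304 of 440. T26A8.6 ranked 60 (73 in replicate 1 and 73 in replicate 2) and Y67A10A.14 ranked 111 (89 and 206). Y55F3BR.9 ranked 212 (193 and 260) and T06D8.11 ranked 304 (351 and 291). The remaining 2, F59C6.15 at rank 186 (980 and 67) and F25H2.15 at rank 285 (515 and 265), lay outside the 440 highest peaks of replicate 1. The word and a TATA-like word occurred together in lfor-1 and lfor-2 alone, beside rpr-1 and mrpr-1. lfor-1 had low relaxed peaks (rank 1109 pooled, 11933 in replicate 1 and 650 in replicate 2), and lfor-2 had no peak within 220 bp in any list. Whether lfor-1 and lfor-2 are near copies of each other, where reads could not be aligned to a single place, was not checked. Just before the word, 13 of 15 bases in lfor-1 and in lfor-2 were identical to those in mrpr-1. Genes that share the word thus ranged from rank 3 to no peak at all, and most genes with high peaks, tRNA genes among them, lacked it.

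**Figure D4:**
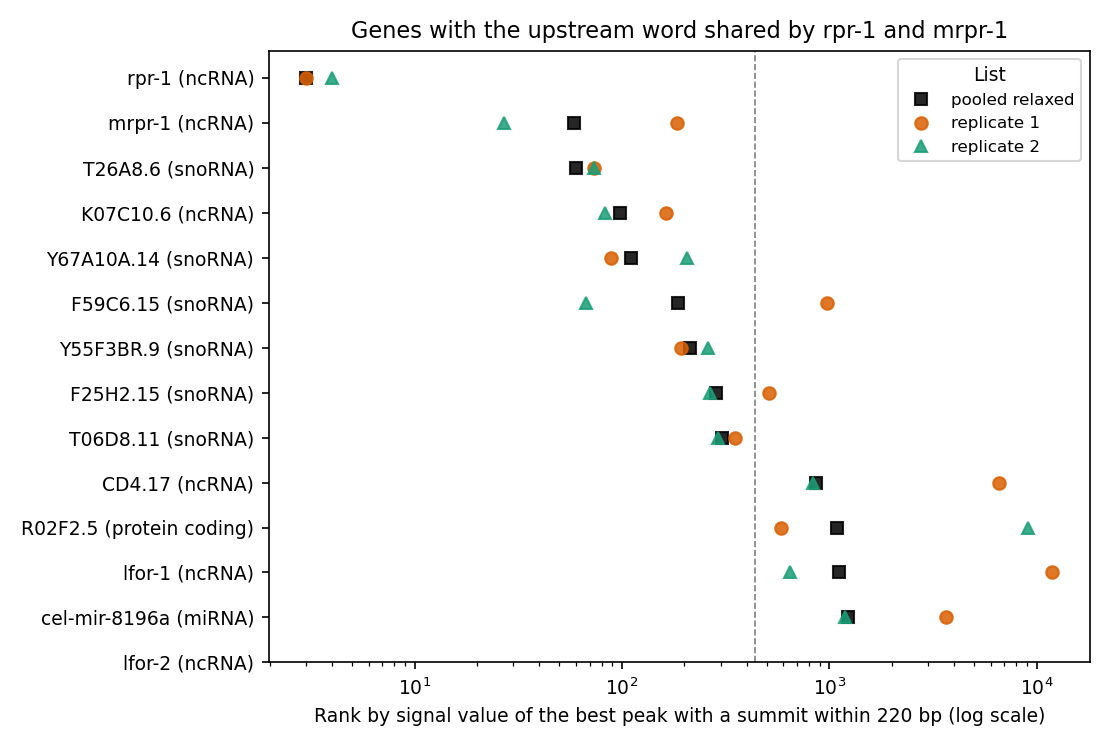
Rank by signal value (log scale) of the best peak with a summit within 220 bp of each gene that has the shared 11-base word before it, in the pooled relaxed list and in each replicate. The dashed line marks rank 440. rpr-1 and mrpr-1 are the upper rows and lfor-2, with no peak, is the lowest row; 7 of the other 12 genes lie left of the line in the pooled list.

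No near copy of either gene was found elsewhere in the genome. All 36-base words in rpr-1, in mrpr-1 and in their 3 reproducible peaks occur a single time in the genome. A blastn search (expect limit 0.01) matched each gene to itself alone, and it gave 0 matches between rpr-1 and mrpr-1. At tRNA gene peaks a median of 87.7% of such words occur a single time (quartiles 86.7 and 89.4%), and 1 of 204 peaks had all of its words so. GC content was 60.4% in the rpr-1 peak, or 51.4% over 440 bp around its summit, and 46.1% and 41.1% in the mrpr-1 peaks, against a median of 39.5% (quartiles 37.3 and 43.2%, highest 51.1%) in tRNA gene peaks. The rpr-1 peak was thus richer in GC than every tRNA gene peak, and the part of GC content and of unique alignment in the order of signal values was not tested.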

How the data were processed

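Peaks of GFP ChIP-seq from 1 group with 2 biological replicates were read from 4 deposited lists on ce11. From each replicate and from both pooled, the authors made relaxed peak lists against a control and derived the reproducible list by IDR, per the deposited file descriptions. For aligner, peak caller and IDR threshold, nothing is given in the sources used here. A deposited line holds a peak's signal value, used to rank peaks within a list, and its −log10 q value. The deposited p-value column holds -1 throughout, a value not given. Read depth per sample is unknown, so no interval on a signal value can be given. Whether the replicates came from separate cultures is not stated beyond the word biological.

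Genes came from Ensembl release 115, tRNA names and isotypes and the genome from RefSeq's WBcel235, and no peak ended beyond its chromosome there. Peaks within 2 kb of each gene were listed. A peak was placed at a noncoding RNA gene when its summit lay within 220 bp. Protein-coding genes counted with a summit in the gene or up to 500 bp upstream. Placement was tested on simulated data, where 100 of 100 planted peaks were recovered. Words were searched on both strands, TATA-like words from 50 to 10 bases before the 5′ end and T runs from 10 bases before to 30 after the 3′ end. Mitochondrial peaks and the ce10 lists were left out. U6 snRNA genes, planned as a comparison, could not be separated because the annotation used here does not name the kind of snRNA, so all 129 snRNA genes were used.

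The members and lists were chosen with earlier results of these data known. Named are the 2 genes, genes that contain or neighbour them, genes of the lists with a reproducible peak, tRNA genes next to them in rank and the 5 noncoding RNA genes most like each. The other genes were named after their values were seen. No test was run, since the genes were chosen on these peaks and there was 1 group. Alternatives covered the ranking value, window, summit definition, tRNA placement, left-out replicates and word mismatches. Computations relied on blastn 2.17.0, matplotlib 3.10.9, scipy 1.17.1, pandas 2.3.3, numpy 2.4.6 and Python 3.11.15.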

Additional observations from a re-analysis of the deposited data

How the results depend on the processing

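Among the values recomputed under alternatives, 44 stayed within tolerance and 13 moved. The tolerance was 1.5 times for ranks and counts and the exact interval for shares. For positions it was no larger than the distance between the gene's summits in the 2 replicates. Shifts of the summit from +15 to -5 at rpr-1 and from +59 to +148 at mrpr-1 counted as moved, and that from +59 to +56 did not. The 44 include the ranks in the pooled relaxed list, which could not move because these peaks have the same signal values and ranks in both lists. Ranked by −log10 q, where highest values tie, rpr-1 and mrpr-1 both stood at 181. With mitochondrial peaks included, rpr-1 ranked 21. With a replicate left out, mrpr-1 ranked 27 to 184, its share of tRNA gene peaks below was 53.5% to 97.3%, and its summit lay at +56 to +148, while rpr-1 ranked 3 to 4 with its summit at -5 to +15. That share counts only tRNA gene peaks among the 440 highest peaks of the replicate. Measured from the middle of the peak, rpr-1 lay at -40.50. In the upper part of the reproducible list the tRNA share for mrpr-1 was 85.8%. A 5 kb window gave 3 peaks at mrpr-1 in replicate 1. With 1 further mismatch, an alternative chosen after the data were seen like the word search itself, 19.2% of the genes with the word had a reproducible summit, and left-out replicates gave 41.7% to 58.3%. No paired analysis was possible because there is 1 group. Depth is unknown and limits every signal value; the control was not analysed here.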
